A study of Mus musculus with 18 samples.

Results

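Scrn1 encodes secernin 1, and its transcript was measured in mouse neocortex divided along the rostrocaudal axis. All probes whose platform gene symbol is Scrn1 were taken, which gave 1 probe among the 21766 that are not control spots and 1 gene among 15063 named there. The tissue was neocortex of MF1 embryos, an outbred mouse stock, at E13.5. It was divided into 3 pools of rostral, 3 of middle and 3 of caudal neocortex, collected from 4 embryos, with no treatment or mutation named in the labels. How the embryos were shared among the pools is not in the labels, so p-values speak only of how these pools vary, and that variation may be technical. RNA of 2 pools of different regions was hybridised together on each of 18 arrays, 1 in Cy3 and 1 in Cy5. A pool was hybridised 4 times, labelled 2 times with either dye, and every pair of regions met on 6 arrays. Scrn1 had a value on all 18 arrays, and none of these was capped.

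The embryonic neocortex is patterned before its areas can be seen. FGF signals spread from its rostral end and WNT and BMP signals from its caudomedial edge, and transcription factors such as Nr2f1, Emx2 and Pax6 form gradients between them. Secernin 1 is a cytosolic protein that was found through its ability to promote regulated exocytosis in permeabilised mast cells. The secernins are related in sequence to a family of cysteine peptidases that cleave dipeptides in bacteria.

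Scrn1 lies on mouse chromosome 6, on the minus strand. Its promoter window is shown because transcript of this 1 gene is what the arrays compared. The window runs from 250 bases before to 50 bases after the RefSeq start of the gene, at chr6:54566333-54566632 (GRCm38.p6), and capitals mark the CG dinucleotides.
Scrn1 promoter: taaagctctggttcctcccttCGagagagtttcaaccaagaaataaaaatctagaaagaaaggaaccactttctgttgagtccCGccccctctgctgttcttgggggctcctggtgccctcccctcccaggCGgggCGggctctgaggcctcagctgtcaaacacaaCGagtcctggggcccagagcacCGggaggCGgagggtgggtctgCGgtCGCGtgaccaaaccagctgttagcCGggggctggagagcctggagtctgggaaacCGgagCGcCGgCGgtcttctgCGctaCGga
The window held 17 CG dinucleotides and 61.3% G and C, against a median of 7 and 52.7% over the 32851 promoter windows of the same RefSeq table. The nuclear receptor motif AGGTCA was found on either strand in 16.3% of these windows, and the ETS core CCGGAA in 14.9%. Neither was in the window of Scrn1, which says only that these letters are not in these 300 bases.

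Scrn1 transcript was highest in rostral, intermediate in middle and lowest in caudal neocortex on the log2 scale. The gene was chosen by its measured rostral minus caudal difference, the largest among features that passed, so its levels and the differences between regions are a description, with no test. The values are log2 ratios of the 2 dyes, deposited by the authors, from which the median of each array was subtracted here. They give no level for a single region. Nor can the cell types of the tissue be checked from their markers' levels. The direction of the ratio is likely, not stated: it was read as Cy5 over Cy3, the order of the channels. In that reading Nr2f1, known to be higher caudally, was lower in rostral than in caudal pools with both of its probes (log2 difference -1.02 ± 0.07 and -1.02 ± 0.17, SE). Etv1, a target of FGF signalling, was higher in rostral pools (0.80 ± 0.07). Emx2 had -0.25 ± 0.08, and the probes of Pax6 had 0.31 ± 0.20 and 0.32 ± 0.07. With the opposite reading every sign below would turn round.

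On the 6 arrays that joined the ends of the axis, rostral RNA gave more Scrn1 signal than caudal RNA on every array. With the rostral pool in Cy5 the log2 difference was 1.98 for rostral pool 2 over caudal pool 1, 1.76 for rostral pool 1 over caudal pool 3 and 1.92 for rostral pool 3 over caudal pool 2. With the rostral pool in Cy3 it was 1.11 for rostral pool 1 over caudal pool 2, 1.62 for rostral pool 2 over caudal pool 3 and 1.15 for rostral pool 3 over caudal pool 1. The values in the 2 dye orientations did not overlap. The mean was 1.59 ± 0.38 (SD, n = 6 arrays), a 3.01-fold difference.

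Rostral RNA also gave more Scrn1 signal than middle RNA on 6 of 6 arrays. With rostral in Cy5 the log2 difference was 0.65 (rostral pool 1 over middle pool 3), 0.70 (rostral pool 3 over middle pool 2) and 1.31 (rostral pool 2 over middle pool 1). With rostral in Cy3 it was 0.68 (rostral pool 2 over middle pool 3), 0.95 (rostral pool 3 over middle pool 1) and 0.62 (rostral pool 1 over middle pool 2). The mean was 0.82 ± 0.27 (SD, n = 6 arrays), and both arrays with the widest differences carried middle pool 1.

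Middle RNA gave more Scrn1 signal than caudal RNA, again on 6 of 6 arrays. With middle in Cy5 the log2 difference was 0.69 (middle pool 3 over caudal pool 2), 0.72 (middle pool 2 over caudal pool 1) and 0.46 (middle pool 1 over caudal pool 3). With middle in Cy3 it was 0.59 (middle pool 3 over caudal pool 1), 0.75 (middle pool 2 over caudal pool 3) and 0.83 (middle pool 1 over caudal pool 2). The mean was 0.67 ± 0.13 (SD, n = 6 arrays), and the dye orientations overlapped here and in the comparison of rostral with middle. The plot of Scrn1 by array shows these 18 values.

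**Figure D1:**
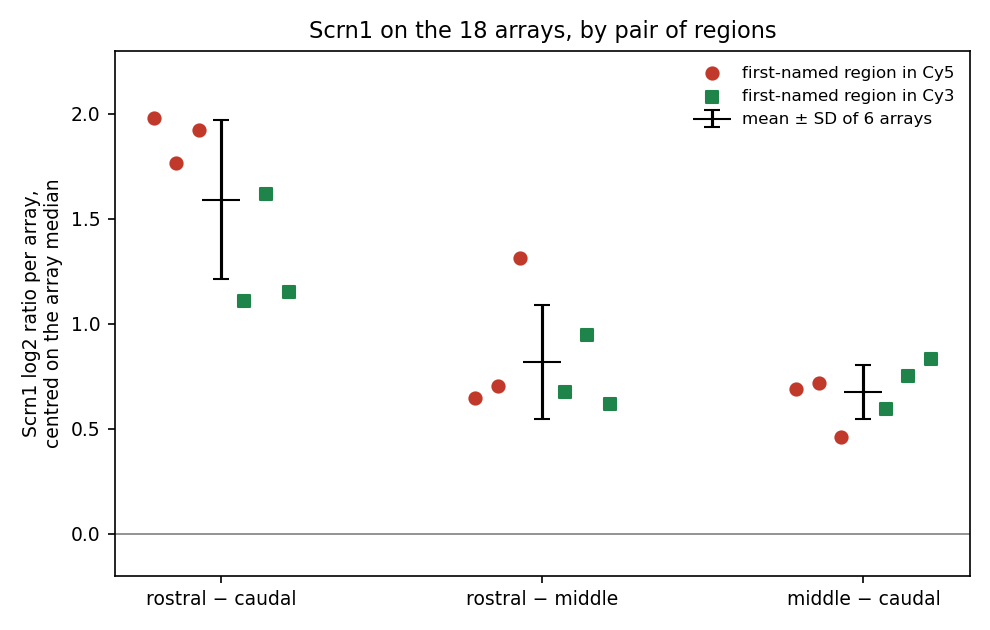
Scrn1 log2 ratio on each of the 18 arrays, centred on the array's median and turned so that the region named first is on top, by pair of regions. Circles have that region in Cy5 and squares in Cy3, and bars are the mean ± SD of 6 arrays. All 18 values lie above 0, from 0.46 to 1.98, and for rostral against caudal all Cy5 circles (1.76 to 1.98) lie above all Cy3 squares (1.11 to 1.62).

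A value for each pool was estimated from its 4 arrays by least squares, relative to the mean of the 9 pools. Scrn1 stood at 0.65, 0.99 and 0.77 in rostral pools 1 to 3, at -0.20, 0.03 and 0.03 in middle pools 1 to 3, and at -0.65, -0.83 and -0.78 in caudal pools 1 to 3. The SE that the arrays give to each pool value was 0.12. The regions did not overlap, which between rostral and caudal pools held, higher in rostral, for 6.22% of all features: the lowest rostral pool was 0.62 above the highest middle pool, and the lowest middle pool 0.45 above the highest caudal pool. Within a region the pools differed by less, from 0.65 to 0.99 in rostral neocortex, -0.20 to 0.03 in middle neocortex and -0.83 to -0.65 in caudal neocortex. Of the 18525 features tested, 74 had this order of regions without overlap (0.399%), and 75 had the reverse order (0.405%). In pooled tissue, fewer cells with the transcript and less transcript per cell cannot be told apart.

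From these pool values Scrn1 was higher in rostral than in caudal pools by 1.56 ± 0.11 (log2, SE from limma, n = 3 pools per region), a 2.94-fold difference. It was higher in rostral than in middle pools by 0.85 ± 0.11 (1.8-fold) and higher in middle than in caudal pools by 0.71 ± 0.11 (1.63-fold). The pools of each region share arrays with those of the other regions, so the 3 differences are not independent. Limma called 12 of 18525 features between rostral and caudal pools at an adjusted p under 0.05 (0.0648%). Of these, 9 were higher in rostral (0.0486%), Scrn1 among them, and 3 higher in caudal pools (0.0162%). This is the result that chose Scrn1. The count was 0 without centring, 0 with the pool number as a block, and 0 to 4 with any 1 pool left out. No feature passed for rostral against middle (0 in limma, 973 at an unadjusted p under 0.05, 5.25%) or for middle against caudal (0 in limma, 901 at an unadjusted p under 0.05, 4.86%).

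Scrn1 had the largest rostral minus caudal difference among features measured on all arrays, not among all features tested. Over all 18525 features, 11 had a larger rostral minus caudal difference, between 1.59 and 2.21. None of the 11 had a value on all 18 arrays (12 to 14 arrays each), and the SD between their pools was 0.55 to 1.85, against 0.14 for Scrn1. Rostral and caudal pools did not overlap in 2 of the 11. The 5 that named a gene were Tmed8 (2.21 ± 0.95), Cblc (2.09 ± 1.15), Lypd6b (2.01 ± 0.92), Thoc2 (1.71) and 1700019F05Rik (1.64 ± 0.88). Just below Scrn1 came 4930430J02Rik (1.51 ± 1.49), Synpo2 and Pkp4 (1.48 ± 0.73), with 2 unnamed features at 1.42 ± 0.58 and 1.41 ± 0.79.

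Among the 12571 features with a value on all 18 arrays, Scrn1 had the largest difference in either direction. The next were Dct, an enzyme of melanin synthesis (1.15 ± 0.11), the immunoglobulin joining chain gene Jchain (1.06 ± 0.55), Gmppa (0.96 ± 0.30), Pdzph1 (0.96 ± 0.08) and Tnfaip6, which encodes a secreted hyaluronan-binding protein (0.95 ± 0.12). In these features Scrn1 ranked 9 for rostral minus middle and 18 for middle minus caudal. The probe was measured about as precisely as most: its residual SD between arrays was 0.25, against a median of 0.26, with 49.2% of features lower. Its SD between pools of a region was 0.14, against a median of 0.15, with 47.1% of features lower.

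Where the middle lies between the ends is a question that the choice of the gene did not settle, since this contrast is independent of the difference between the ends. The middle pools were at -0.07 ± 0.10 relative to the mean of rostral and caudal (log2, 95% interval -0.30 to 0.15), and this did not pass (limma unadjusted p = 0.473, adjusted p = 1). A p that misses the threshold does not show that the middle lies at the midpoint, and the interval gives the range these pools allow. No feature passed this test in limma (0 of 18525, 0%), and 752 had an unadjusted p under 0.05 (4.06%). The step from middle to caudal made up 45.4% of the difference between the ends. With middle pool 1 left out the value was 0.01.

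Scrn1 can also be followed from rostral to caudal by a detour through the middle. The 6 direct arrays gave 1.59 ± 0.11 (log2, SE), and the sum of the 2 steps through middle neocortex, over the other 12 arrays, gave 1.49 ± 0.15. They differed by 0.10 ± 0.18 (95% interval -0.29 to 0.49, limma unadjusted p = 0.592, adjusted p = 0.952). This fit takes arrays as independent, although arrays that share a pool are not. At an unadjusted p under 0.05, 3.72% of features differed between the routes, and 0 at an adjusted p under 0.05.

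The dye effect on Scrn1 was smaller than its differences between regions. Its dye coefficient, Cy5 over Cy3, was 0.11 ± 0.06 (95% interval -0.02 to 0.23, limma unadjusted p = 0.0922, adjusted p = 0.197), while 23% of features passed this test. Without centring of the arrays it was 0.35 and passed (limma adjusted p = 0.00127). Every pool was in each dye equally often, so a constant dye effect cancels in the differences between regions. The gap between the orientations was not the same for each pair of regions. It was 0.60 for rostral minus caudal (1.89 with rostral in Cy5 and 1.29 with rostral in Cy3), 0.14 for rostral minus middle (0.89 and 0.75) and -0.10 for middle minus caudal (0.62 and 0.72), with 3 arrays per mean. Whether these gaps differ from each other was not tested. In each orientation taken alone, the difference between the ends was larger than either step.

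The secernin family has 2 other members, each with 1 probe. Scrn3 had values on 18 arrays and regions that overlapped. It stood at -0.22, -0.16 and 0.09 in rostral pools, at 0.07, 0.26 and -0.14 in middle pools, and at 0.24, -0.06 and -0.07 in caudal pools. Caudal pool 1 and middle pool 2 were the highest, and rostral minus caudal was -0.14 ± 0.14 (log2, 95% interval -0.47 to 0.19, limma unadjusted p = 0.362, adjusted p = 0.914). The interval lies below 1.56, the value by which Scrn1 was chosen, and the 2 genes were not tested against each other.

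Scrn2 was measured poorly, on 15 arrays with a residual SD of 0.92 between them. Its rostral pools stood at 0.24, 0.76 and -0.27, its middle pools at -0.70, -0.05 and 0.18, and its caudal pools at 0.14, -0.12 and -0.18. Rostral minus caudal was 0.30 ± 0.31 (log2, 95% interval -0.42 to 1.02, limma unadjusted p = 0.362, adjusted p = 0.914). As Cy5 over Cy3, all 15 centred values were above 0, from 0.11 to 3.45, so the sign of each difference between regions on an array followed the dye. A ratio of 3.45 on array 10, rostral pool 2 over middle pool 1, stood far from its other values. The gap to the next value was 0.617 of the range of 6 arrays, just under the outlier limit of 0.625. Without that array Scrn2 had -0.01 for rostral minus caudal. The plot of the 3 genes by pool sets them side by side.

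**Figure D2:**
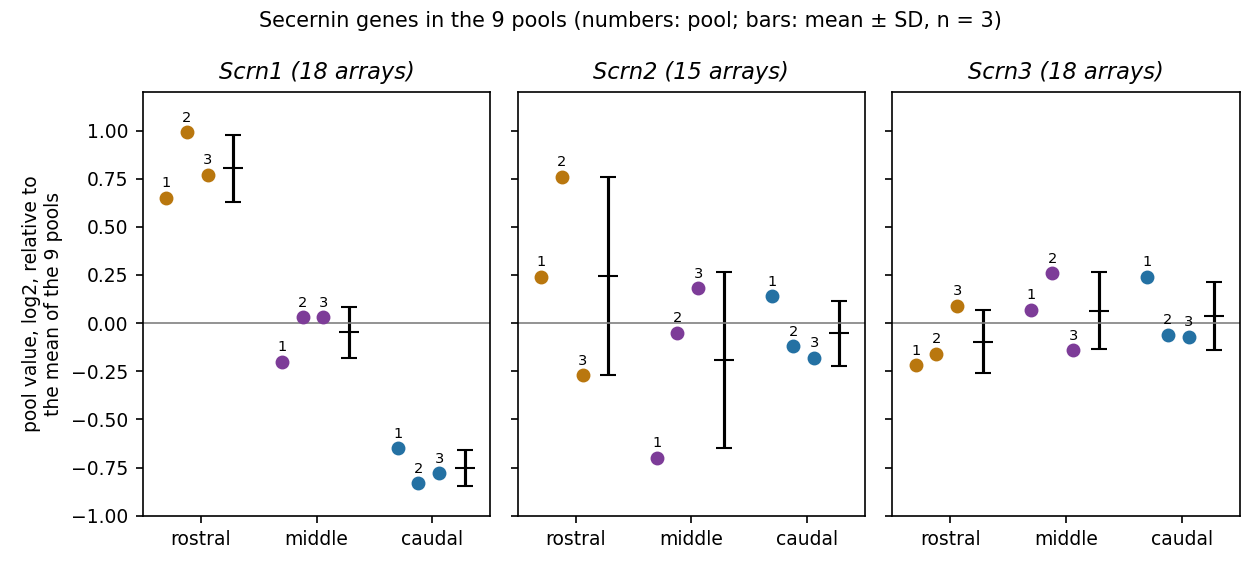
Pool values of Scrn1, Scrn2 and Scrn3 in rostral, middle and caudal neocortex, on the log2 scale relative to the mean of the 9 pools. Points are pools with their numbers, and bars are the mean ± SD of 3 pools. The regions are separate for Scrn1 (0.65 to 0.99 in rostral, -0.20 to 0.03 in middle and -0.83 to -0.65 in caudal neocortex) and overlap for Scrn2 and Scrn3.

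Genes of regulated exocytosis, the process in which secernin 1 was found, had a median difference near that of all features. Of 56 genes for SNARE proteins, vesicle proteins and their partners, 45 were measured. None passed over all features. At an unadjusted p under 0.05, 3 were higher in rostral pools, against 4.17% of all features, and 4 were higher in caudal pools, against 3.74% (7.9% either way). Their median rostral minus caudal difference was -0.02, against 0.00 over all features. Among members on all arrays the largest differences were those of Exoc7, a subunit of the exocyst that tethers vesicles (0.61 ± 0.20, log2), Cadps, which primes dense-core vesicles (-0.36 ± 0.06), and Syt11, a synaptotagmin (0.32 ± 0.13). These 3 had limma unadjusted p of 0.0182, 0.000639 and 0.0397 and adjusted p of 0.444, 0.156 and 0.586. A second probe of Syt11 had 0.08 ± 0.06.

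Cytosolic peptidases and related hydrolases, listed for the relation of secernins to peptidases, were also near the median of all features. Of 28, 23 were measured, 0 passed over all features, and 2 had higher rostral values at an unadjusted p under 0.05, against 4.17% of all features. Their median rostral minus caudal difference was 0.04. The measured members ran from -0.67 to 0.29. Among those on all arrays the largest difference was that of Tpp2, tripeptidyl peptidase 2, at -0.67 ± 0.45 (log2, limma unadjusted p = 0.178), followed by the aminoacylase gene Acy1 (0.22 ± 0.11, 0.0691) and Dpp8 (0.22 ± 0.21, 0.33). A second probe of Dpp8, on 16 arrays, went the other way (-0.63 ± 0.18, 0.00859). Mast cell genes, 9 of 12 measured, had 5 members above and 4 below 0, from -1.30 to 0.41, with a median of 0.02 and 0 members at an unadjusted p under 0.05. Among members on all arrays, the protease genes Tpsab1, Cma1 and Cpa3 had 0.41 ± 0.18, 0.24 ± 0.21 and 0.23 ± 0.15 (log2).

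Markers of cell types were compared with Scrn1 in the same pools, since neocortical pools can differ in their cells. Early neuron genes (29 of 32 measured) had a median rostral minus caudal difference of -0.04, with 12 members above and 17 below 0. At an unadjusted p under 0.05 there were 4 above and 4 below 0, 8 of 29 members, against 7.9% of all features. The largest differences among members on all arrays were those of Fezf2, a transcription factor of deep-layer projection neurons (-0.28 ± 0.05), the splicing regulator gene Rbfox1 (0.28 ± 0.07) and the neurofilament gene Ina (-0.25 ± 0.05). The list median per pool lay between -0.02 and -0.01 in rostral, -0.01 and 0.04 in middle, and -0.01 and 0.03 in caudal pools. Radial glia genes (20 of 20 measured) had 14 members above and 6 below 0 with a median of 0.02, and 2 above and 3 below 0 at that p, 5 of 20 against 7.9% of all features. The largest difference among members on all arrays was that of Sox3 (0.54 ± 0.46, limma unadjusted p = 0.277). Slc1a3, a glutamate transporter gene of radial glia, had 0.32 ± 0.05 (limma unadjusted p = 0.000569, adjusted p = 0.156), and its other probes had 0.22 ± 0.06 and 0.32 ± 0.29. Of the 5, Vim, which encodes vimentin, was the 1 that passed over all features (-0.51 ± 0.05, limma adjusted p = 0.0389). Intermediate progenitor genes (13 of 13 measured) had a median of -0.06, with 2 members each way at that p, 4 of 13 against 7.9% of all features. Cajal-Retzius genes (9 of 11 measured) had a median of -0.01, with Reln, the extracellular signal of these cells, the only member at an unadjusted p under 0.05 (-0.36 ± 0.08, log2). A second probe of Reln had -0.04 ± 0.10.

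Markers of neighbouring tissues had list medians at or below 0. Meningeal genes (18 of 21 measured) were below 0 in 15 members with a median of -0.12, and 6 of 18 were higher in caudal pools at an unadjusted p under 0.05, against 3.74% of all features. The largest differences among members on all arrays were those of Ptgds (-0.66 ± 0.13), Dcn (-0.39 ± 0.09) and Lum (-0.33 ± 0.14), the last 2 for proteoglycans of the matrix. The list's median per pool was -0.11 to 0.00 in rostral, -0.04 to 0.04 in middle and 0.00 to 0.11 in caudal pools. Red blood cell genes (10 of 16 measured) had a median of -0.11 and per pool -0.09 to -0.02 in rostral, 0.03 to 0.06 in middle and -0.03 to 0.05 in caudal pools. Endothelial genes (16 of 16 measured) had a median of -0.08, microglial genes (10 of 12) one of -0.06, ventral telencephalic genes (14 of 16) one of 0.00 and genes of the olfactory bulb primordium and septum (6 of 10) one of 0.00. At an unadjusted p under 0.05, where 3.74% of all features were higher in caudal pools, these lists held, in this order, 2 of 10, 1 of 16, 1 of 10, 1 of 14 and 2 of 6 members, each higher in caudal pools. The 2 in the last list were Lhx2 (-0.31 ± 0.07) and Zic4 (-0.19 ± 0.06). Lhx2 is also counted among the reported caudal genes, so it does not mark a neighbouring tissue alone. That list had 3 members above and 3 below 0, with Zic1 at 0.29 ± 0.13. The part of these cells in the difference of Scrn1 was not tested. The ratios hold no level of a marker, so none can be said to be at 0.

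Genes reported for the axis gave the setting in which Scrn1 stood. Of 12 reported rostral genes 10 were measured, 7 above and 3 below 0, from -0.62 to 0.80, with a median rostral minus caudal difference of 0.17. At an unadjusted p under 0.05, 3 of the 10 were higher in rostral pools, against 4.17% of all features, and 0 in caudal pools. Of 13 reported caudal genes 12 were measured, 2 above and 10 below 0, from -1.02 to 0.08, with a median of -0.07, and 3 of the 12 were higher in caudal pools at that p, against 3.74% of all features. Etv1 in the first list and Nr2f1 in the second passed over all features. The second probe of Nr2f1 did not pass (limma adjusted p = 0.15). The difference of Scrn1, 1.56 ± 0.11 on the log2 scale, was larger in size than those of Etv1 (0.80 ± 0.07) and Nr2f1 (-1.02 ± 0.07), a difference between genes that was not tested. Scrn1 was chosen for the largest difference among features that passed, and these probes of Etv1 and Nr2f1 passed, so this order carries no weight. These lists bear on the reading of the direction, and are no independent evidence of it.

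Genes with a pattern like that of Scrn1 were ranked by Pearson r over the 9 pool values, among 9669 other genes with values on all 18 arrays. The 9 values share arrays and 3 regions, so any gene with an even gradient has a high r, and r is a description only. The most alike were Pantr2, a noncoding RNA adjacent to a POU transcription factor gene (r = 0.989), Pdzph1 (0.988), Dct (0.978), the zinc finger gene Hivep1 (0.972), Tnfaip6 (0.97), Paip2, a repressor of translation (0.97), Rasgef1c (0.968), Hmga2, a chromatin protein of embryonic progenitors (0.968), Spry2, which dampens receptor tyrosine kinase signals (0.967), and Pou3f2, a POU transcription factor (0.964). Their rostral minus caudal differences ran from 0.14 to 1.15, all below the 1.56 of Scrn1. Hivep1 (0.16 ± 0.04) and Paip2 (0.14 ± 0.04) followed its shape at 10.1% and 9.2% of its size. Dct reached 73.6% of it, Pdzph1 61.4% and Tnfaip6 61.1%. A further probe of Pou3f2 had 0.00 ± 0.05.

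Dct had the pool values nearest in size, and they repeat part of the order within regions. It stood at 0.53, 0.77 and 0.62 in rostral pools 1 to 3, at -0.33, 0.00 and -0.08 in middle pools, and at -0.54, -0.61 and -0.37 in caudal pools. As in Scrn1, rostral pool 2 was the highest and middle pool 1 the lowest of its region. Hmga2 had the same features, with 0.32, 0.50 and 0.33 in rostral pools, -0.23, -0.12 and 0.06 in middle pools, and -0.23, -0.33 and -0.30 in caudal pools. Both genes were picked by r over these same pool values, so part of a shared order follows from the choice. Their values also come from the same arrays as those of Scrn1. Pantr2 and Pdzph1, with the highest r, were highest in rostral pool 3 (0.44 and 0.56). In middle neocortex they too were lowest in pool 1 (-0.06 and -0.16).

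The most opposite genes were Cthrc1, which encodes a secreted protein with a collagen-like repeat (r = -0.995), Fgf14, an intracellular modulator of sodium channels (-0.992), the calcineurin subunit gene Ppp3cb (-0.99), the splicing regulator gene Rbm20 (-0.974), Lrrc47 (-0.973), the neuronal calcium sensor gene Hpca (-0.972), the chaperonin subunit gene Cct6a (-0.969), the adhesion molecule gene Vcam1 (-0.969), Vim (-0.965) and Nr2f1 (-0.964). Their rostral minus caudal differences lay between -1.02 and -0.13. Nr2f1, the largest of these in size, stood at -0.51, -0.46 and -0.69 in rostral pools, 0.07, 0.04 and 0.13 in middle pools, and 0.45, 0.45 and 0.51 in caudal pools. Its lowest rostral pool was pool 3, whereas Scrn1 was highest in rostral pool 2. Where a gene had several probes on all arrays, the probe with the highest absolute r was ranked. The second probe of Rbm20 had -0.11 ± 0.25 for rostral minus caudal. That of Nr2f1 had -1.02 ± 0.17, with r = -0.891. The map of pool values shows these genes under Scrn1.

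**Figure D3:**
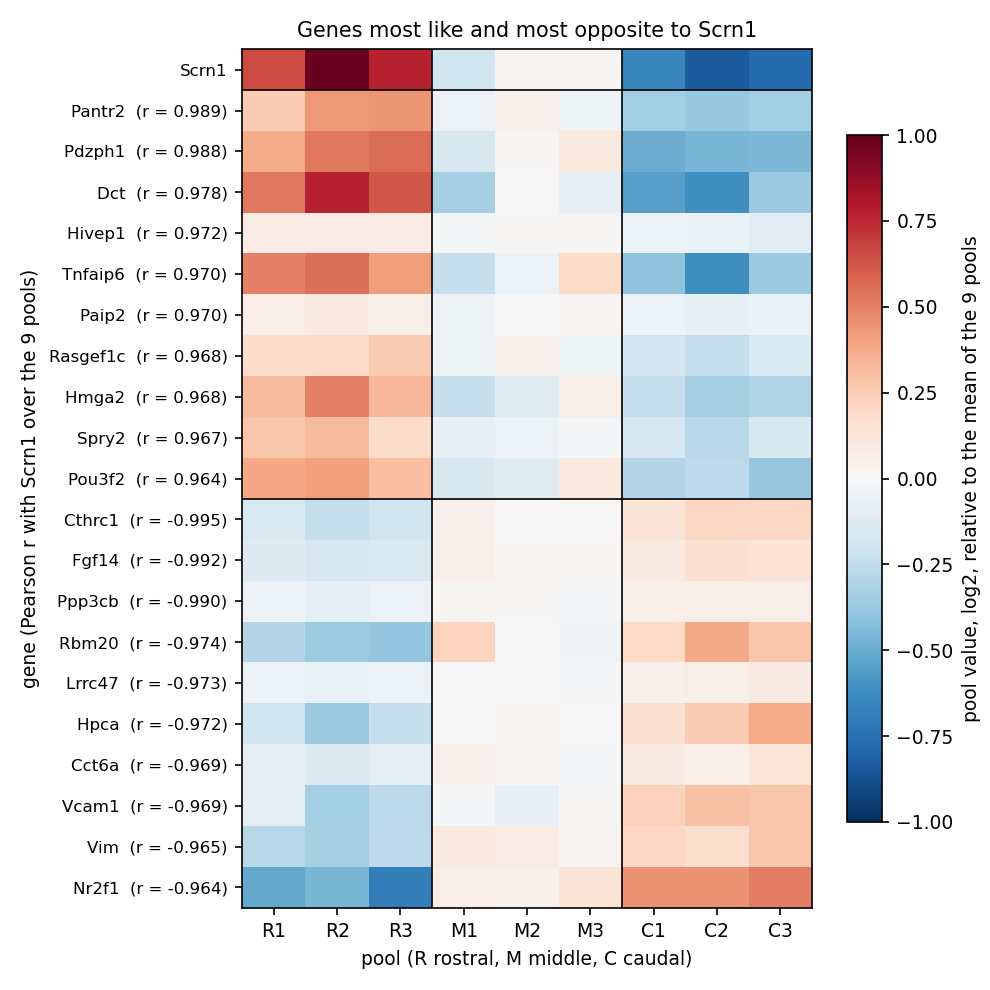
Pool values (colour, log2 relative to the mean of the 9 pools, red higher and blue lower) of Scrn1 in the top line, the 10 genes most like it and the 10 most opposite to it by Pearson r over the 9 pools. Columns are rostral, middle and caudal pools 1 to 3. Scrn1 spans the widest range, from -0.83 to 0.99, while genes such as Hivep1 and Lrrc47 follow or oppose it within narrow ranges.

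The measured genes nearest to Scrn1 on chromosome 6 had differences around 0. The 10 nearest measured protein-coding genes on each side in the RefSeq gene table lay within a run of 31 protein-coding genes, of which 10 were not measured. Of the 20 neighbours, 10 had a rostral minus caudal difference above 0 and 10 below, the median was 0.00 and the range -0.24 to 0.33 (log2). None passed over all features, and 3 of the 20 had an unadjusted p under 0.05, where 7.9% of all features did so. These were Ppp1r17, an inhibitor of protein phosphatases (0.33 ± 0.10, limma unadjusted p = 0.0113), Neurod6, a transcription factor of young cortical neurons (0.19 ± 0.06, 0.0111), and Hibadh, an enzyme of valine breakdown (-0.13 ± 0.05, 0.0298). The nearest measured genes were Prr15 on one side (-0.07 ± 0.11) and Mturn on the other (0.33 ± 0.47, on 15 arrays). The protein-coding genes directly beside Scrn1 on either side were not measured. The Hox genes at the far end of the run had -0.04 ± 0.05 (Hoxa9), 0.25 ± 0.23 (Hoxa10) and -0.05 ± 0.05 (Hoxa11). A second probe of Adcyap1r1 had 1.03 ± 0.78, against 0.01 ± 0.15 for the probe on all arrays. The plot along the chromosome shows Scrn1 beside them.

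**Figure D4:**
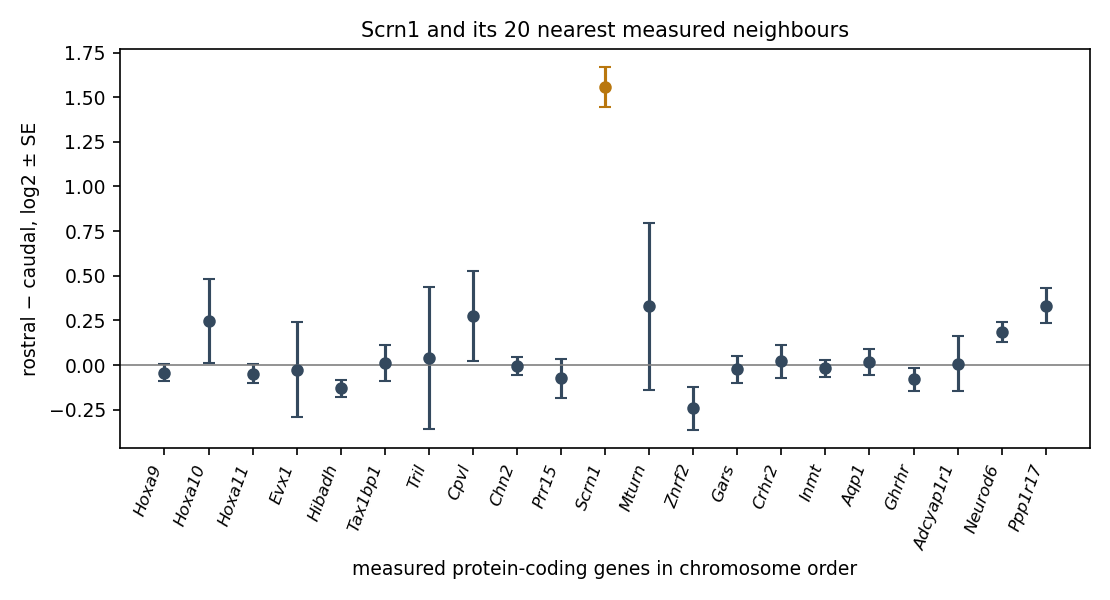
Rostral minus caudal difference (log2, ± SE from limma, n = 3 pools per region) of Scrn1 and the 10 nearest measured protein-coding genes on each side, in their order along chromosome 6 and not to scale. Scrn1 is at 1.56 and its 20 neighbours lie between -0.24 and 0.33.

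The difference of Scrn1 between the ends kept its sign and stayed between 1.45 and 1.65 under all 38 alternatives, as the plot of alternatives shows. Some of these could not move it. The filters act on other features, and the dye term, the array-level fit and the pool-number block are balanced over the regions. This range describes the value that chose the gene and is no test of it. With 1 pool and its 4 arrays left out the difference was 1.45 to 1.64, and with 1 array left out 1.51 to 1.61. Without centring of the arrays the step from middle to caudal was 0.53, when the median of all features was at -0.17, so relative to that median it was 0.70. Centred on the Gapdh control spots, the step from rostral to middle was 1.02, when the median of all features was at 0.17, which leaves 0.85. The Gapdh control spots stood at -0.09, -0.04 and -0.15 in rostral, 0.07, 0.09 and 0.08 in middle and -0.14, 0.03 and 0.15 in caudal pools, a range far narrower than that of Scrn1.

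**Figure D5:**
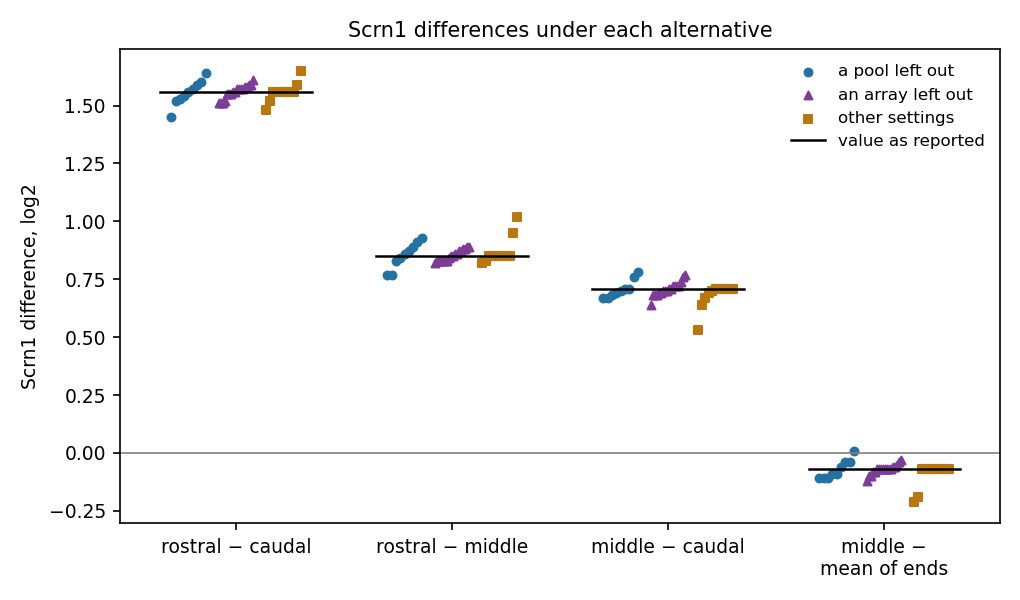
Scrn1 differences (log2) between regions under each alternative: a pool left out (circles), an array left out (triangles) and other settings (squares), with the reported value as a line. Rostral minus caudal stays between 1.45 and 1.65, and middle minus the mean of the ends between -0.21 and 0.01.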

How the data were processed

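The authors deposited 1 log2 ratio per probe and array, for 21998 probes. The base was read from the values: ratios stop at log2 of 100000. Not given in the sources used here: scanner, background correction, normalization and direction. Capped ratios (1477) were set to missing and 232 Gapdh control spots left out of tests. Arrays gave 18085 to 20693 values, with medians from -0.09 to 0.61, and each was centred on its median. Features with values on at least 12 arrays and at least 2 arrays of each pool were kept (18525, of them 14632 with 1 gene symbol, 13379 genes). Of 16632 probes with 1 symbol, 15952 matched the RefSeq gene table by gene ID, 139 probes have several symbols and 4995 are unnamed here. The number of arrays limits the precision.

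Pool values came from least squares with 1 coefficient for each pool (constrained to a sum of 0) and a dye term. Limma 3.58.1 (R 4.3.3, lmFit and eBayes) was fitted to the 9 pool values by region, with 6 residual and 1.26 prior degrees of freedom. The routes and the dye were tested by limma on the 18 arrays. P-values are two-sided, with Benjamini-Hochberg adjustment across the features tested and 0.05 as the threshold. The fits were tested on simulated data. In lists and along the chromosome, the probe with values on most arrays stands for a gene. Named were the secernins, the 10 genes highest and 10 lowest in r, and 10 measured neighbours on each side. The features around Scrn1 in rank and the genes that bear on direction were named as well. Lists described by members name some or all of the 3 members with the largest difference among those on all arrays. Scrn1, the lists and the tests were chosen with earlier results of these data known. Alternatives changed centring, scaling, caps, filters, the dye term, the level and robustness of the fit, the arrays used, a block by pool number, and left out each pool and array.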

Additional observations from a re-analysis of the deposited data

Results flagged for a closer look

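Scrn3 on array 13, rostral pool 1 against middle pool 2 with middle in Cy5, had a log2 difference of -0.68, and the nearest of the other 5 arrays of that pair of regions had -0.22. The gap was 0.677 of the whole range, above the critical value of 0.625 for 6 arrays. Of the 9 sets of arrays examined for the 3 secernin genes this was the only one so marked, and chance marks about 1 set in 20. No array was marked for Scrn1.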

How the results depend on the processing

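Scrn1 stayed higher in rostral than in caudal pools under all 38 alternatives (1.45 to 1.65), some of which could not move this value. The other differences of Scrn1 kept within the spread between pools except 0.53 for middle minus caudal without centring and 1.02 for rostral minus middle with centring on the Gapdh spots, where the medians of all features moved by -0.17 and 0.17. With a pool left out rostral minus middle was 0.77 to 0.93, middle minus caudal 0.67 to 0.78 and middle minus the mean of the ends -0.11 to 0.01, turning sign without middle pool 1. With an array left out this last value was -0.12 to -0.03, and its adjusted p was never under 0.525. Direct minus indirect was -0.02 with arrays scaled to an equal spread, 0.01 to 0.24 with a pool and 0.03 to 0.18 with an array left out. The dye coefficient was 0.35 and passed without centring (adjusted p = 0.00127), was 0.06 to 0.17 with a pool left out and 0.08 to 0.14 with an array left out. Of all features, 12 passed for rostral against caudal, but 0 without centring, 6 without a minimum over arrays and 46 among features on all 18 arrays. With a pool left out 0 to 4 passed: 0 without rostral pool 1, middle pool 2 or 3 or any caudal pool, 1 without rostral pool 2, 2 without rostral pool 3 and 4 without middle pool 1. With an array left out it was 2 to 22, and lay more than 1.5 times from 12 without array 13 (2), 14 (6), 11 or 16 (7) and 15 (22). Each pool left out takes 4 arrays and residual degrees of freedom with it. Limma on the 18 arrays, which takes arrays of the same pools as independent, called 1327 features between rostral and caudal pools, 706 between rostral and middle, 498 between middle and caudal and 291 for the middle against the ends, and these 3 last counts were 0 otherwise. Same-numbered pools had r of their deviations from -0.36 to -0.04 over 9 pairs. Such pools were never on an array together, while differently numbered pools of different regions were. Shared arrays alone can move these r, so they cannot tell whether the numbers pair the pools. Differently numbered pools had r from -0.39 to 0.56, with 9 of 18 pairs over 0.1. Whether pools share deviations beyond those of their shared arrays was not tested. With the pool number as a block 0 features passed for rostral against caudal, and Scrn1 kept 1.56. The single probe, the lack of intensities and 3 pools per region from 4 embryos limit these values.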
